A study of Mus musculus with 9 samples.

Results

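The HIF pathway genes examined here were the 3 alpha subunits Hif1a, Epas1 and Hif3a, the beta subunit Arnt, the 3 prolyl hydroxylases Egln1, Egln2 and Egln3, the ubiquitin ligase subunit Vhl and the asparaginyl hydroxylase Hif1an. These 9 genes were taken by name, without regard to their values, from 52408 genes to which the transcripts of the table were summed, and 6 of the 9 reached the minimum for testing, 1 TPM in at least 3 libraries, among 11950 genes that did. RNA-seq was done on total RNA of MIN6, a line from a mouse insulinoma that keeps features of pancreatic beta cells, in 9 libraries, 3 in each of 3 groups. The groups were MIN6 cells that were not transfected, labelled CTRL (control), MIN6 cells with Nr4a1, an orphan nuclear receptor of the immediate early gene class, overexpressed, and MIN6 cells with Nr4a1 overexpressed and then treated with EGCG, the catechin epigallocatechin gallate of green tea. All libraries carry the same batch label, 1, and the sources used here do not give the construct, its promoter, the transfection, or the dose and time of EGCG.

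Since the control was untransfected, an effect of transfection and an effect of Nr4a1 cannot be told apart. The labels leave it unsaid if a group's 3 libraries came from separate cultures, and p-values then cover only library-to-library spread, which may be technical. Values are TPM, a level per unit of transcript length scaled to the same total in each library, and TPM keeps no read depth, so no counting error could be given. Transcript identifiers absent from the annotation used here, which held 18.0% to 20.6% of a library's TPM, were left out of the gene sums, so a gene's level covers only its matched transcripts.

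In cells with oxygen, the prolyl hydroxylases mark the HIF alpha subunits on proline residues, the VHL ligase recognises the mark, and the subunits are degraded. Hif1an (FIH) hydroxylates an asparagine of the same subunits and hinders their binding of coactivators, and an alpha subunit that escapes both pairs with Arnt and activates genes of glycolysis and of the hypoxia response. Egln1 and Egln3 are themselves known as hypoxia-inducible genes, which forms a feedback loop. The regulation of the alpha subunits is thus largely at the protein level, which RNA does not show.

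Egln1, the main oxygen-sensing prolyl hydroxylase in most cells, fell to 30.5% of its control level in the Nr4a1-overexpressing libraries, while Egln2 and Hif1an rose, Arnt fell slightly, and Hif1a and Vhl did not pass the test. In the EGCG libraries Egln1 and Arnt were higher than in the overexpressing libraries, and Egln2 and Hif1an were lower. Egln1 stayed below control in the EGCG libraries, at 72.1% of the control level. Epas1, Hif3a and Egln3 were at trace levels, never above 0.12 TPM in any library.

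The level of Nr4a1 was 0.63, 0.78 and 0.76 TPM in the control libraries, 128.3, 122.52 and 165.18 TPM in the overexpressing libraries, and 46.25, 60.91 and 54.46 TPM in the EGCG libraries. The groups did not overlap and followed the labels, and the mean with EGCG was 38.9% of the mean without it. A response to EGCG and a response to the lower Nr4a1 level therefore cannot be told apart in the comparison of the EGCG libraries with the overexpressing ones.

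Differences between groups were tested on log2(TPM + 1) with limma across all tested genes, and a gene was called when its adjusted p was below 0.05. Because 1 is added to each TPM, the fold changes of low genes are understated. Between the overexpressing and the control libraries 4 of the 6 tested HIF pathway genes were called, 2 higher and 2 lower, and 59.5% of all tested genes were called, 38.2% higher and 21.3% lower. Between the EGCG and the overexpressing libraries 4 of 6 were called, 2 in each direction, beside 53% of all tested genes, 18.8% higher and 34.1% lower. Between the EGCG and the control libraries 2 of 6 were called, Arnt higher and Egln1 lower, beside 18.2% of all tested genes, 11.1% higher and 7.1% lower. The number of called HIF pathway genes was thus close to that among all genes in the comparisons with the overexpressing libraries, and what stood out was the size of the Egln1 difference, which in absolute value ranked at the 98.57, 97.76 and 94.01 percentile of the tested genes in the 3 comparisons in the order above. These comparisons share libraries in pairs, so opposite signs in the first and the second are not independent of each other.

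**Figure D1:**
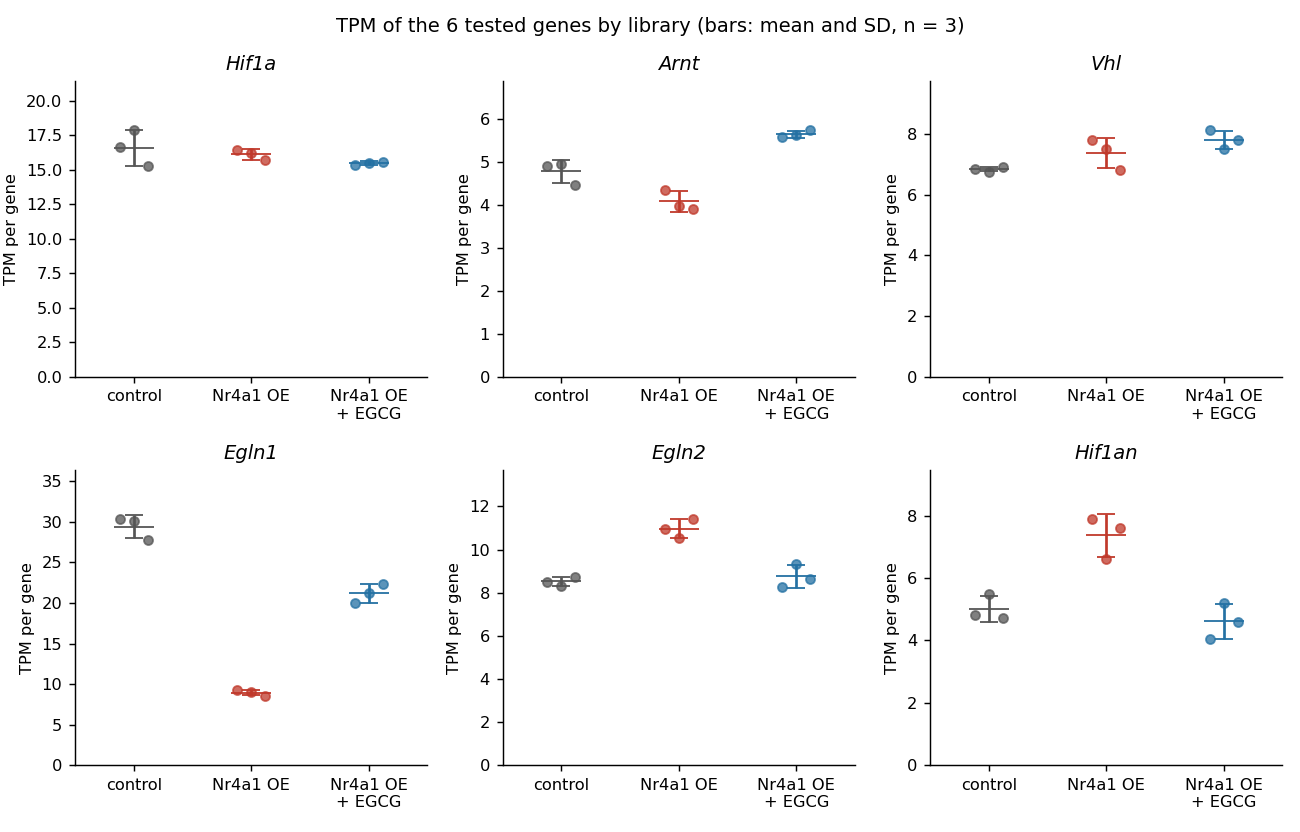
TPM (linear axis from 0) of the 6 tested HIF pathway genes in each of the 9 libraries, with points for libraries and bars for the mean and SD of each group of 3. Egln1 is lowest in the overexpressing libraries, at 8.58 to 9.29 TPM against 27.74 to 30.33 TPM in the control, and Egln2 and Hif1an are highest there.

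The promoter windows of the 3 hydroxylase genes called in both comparisons with the overexpressing libraries are shown so that the bases before their start sites can be read beside their levels. They come from RefSeq on the mouse build GRCm38.p6, cover the 250 bases before each start, run 5′ to 3′ on the gene's strand, and have in capitals the core letters of the hypoxia response element, ACGTG or GCGTG, on either strand (an opposite-strand match reads CACGT or CACGC).
Egln1 at chr8:124949255-124949504, minus strand: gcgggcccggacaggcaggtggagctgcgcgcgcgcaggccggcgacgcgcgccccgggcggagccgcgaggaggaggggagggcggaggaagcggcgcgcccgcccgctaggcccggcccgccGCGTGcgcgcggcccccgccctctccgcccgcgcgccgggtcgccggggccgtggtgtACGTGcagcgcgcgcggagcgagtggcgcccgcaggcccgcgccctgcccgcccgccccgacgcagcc
Hif1an at chr19:44562604-44562853, plus strand: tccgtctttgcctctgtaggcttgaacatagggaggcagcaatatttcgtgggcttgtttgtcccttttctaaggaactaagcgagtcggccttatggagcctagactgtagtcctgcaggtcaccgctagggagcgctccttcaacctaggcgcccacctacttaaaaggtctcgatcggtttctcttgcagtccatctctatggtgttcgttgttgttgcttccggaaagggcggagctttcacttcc
Egln2 at chr7:27166803-27167052, minus strand: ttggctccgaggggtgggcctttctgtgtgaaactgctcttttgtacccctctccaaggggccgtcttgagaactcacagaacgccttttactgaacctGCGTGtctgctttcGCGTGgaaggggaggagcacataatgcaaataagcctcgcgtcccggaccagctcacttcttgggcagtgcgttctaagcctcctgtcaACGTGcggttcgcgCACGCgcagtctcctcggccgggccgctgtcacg
The Egln1 window holds ACGTG 68 bases and GCGTG 126 bases before the start, counted to the first base of the match, and is 86% G and C. The GENCODE annotation of the same build puts the Egln1 start 70 bases further upstream, so the nearer match lies inside its transcript there. The Egln2 window holds ACGTG at 48 bases and GCGTG at 151, 137 and, on the opposite strand, 34 bases before the start. The Hif1an window holds neither motif.

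The table had entries for 8 of the 9 genes, all but Epas1, in 9 windows, since Egln2 has 2. ACGTG or GCGTG was in 7 of these 9 windows, and in 38.6% of 32851 windows of the same length in the RefSeq table. The Hif1a window holds ACGTG as well, 134 and 70 bases before the start and, on the opposite strand, at 135 bases. The matches at 134 and 135 share a palindrome. The 2 Hif1a transcripts described below start 6529 bases apart, so this window cannot lie directly before both starts. Egln2 has GCGTG 116 bases before the start in its other window. A relation of these matches to the levels was not tested. AAAGGTCA, the element bound by Nr4a1 monomers, was in none of the 9 windows on either strand, and in 1.34% of all windows. These are matches of letters in a short window, not sites shown to be bound.

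Among the alpha subunits, Hif1a, the subunit found in nearly all cell types, made up nearly all of the RNA. It stood at 16.63, 17.85 and 15.24 TPM in the control, 16.40, 16.22 and 15.69 TPM in the overexpressing and 15.34, 15.49 and 15.59 TPM in the EGCG libraries. The range of the control libraries held all libraries of both other groups, and the EGCG libraries lay just under the overexpressing ones without overlap, as 64.7% of all tested genes did not overlap between these groups. The log2 difference of overexpressing minus control was -0.04 (SE 0.0589, 95% interval -0.17 to 0.0964, limma adjusted p = 0.614), and of EGCG minus overexpressing -0.05 (95% interval -0.187 to 0.0791, limma adjusted p = 0.468). For EGCG minus control it was -0.09 (95% interval -0.224 to 0.0424, limma adjusted p = 0.302). The first value depends on how TPM is scaled: when each library was rescaled by the median ratio over all tested genes, the Hif1a difference was -0.15 (limma adjusted p = 0.0325), and after quantile normalization -0.19 (limma adjusted p = 0.0115), and with either scaling the second value turned to 0.04 and 0.09.

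The median log2 difference over all tested genes was 0.10 for overexpressing minus control and -0.09 for EGCG minus overexpressing, so the Hif1a value lay below the first median and above the second. Rescaling by median ratio also evened the split of all called genes, from 4561 higher and 2545 lower to 3541 higher and 3547 lower in the first comparison, and from 2250 higher and 4080 lower to 3054 higher and 3082 lower in the second. On nuclear protein-coding genes alone the median of the second comparison was 0.03.

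While the sum of Hif1a was not called, 2 of its transcripts were called in opposite directions between the overexpressing and the control libraries. Hif1a-201 (ENSMUST00000021530) was estimated at 13.73, 15.09 and 12.83 TPM in the control, 10.51, 10.84 and 10.86 TPM in the overexpressing and 9.42, 11.80 and 11.93 TPM in the EGCG libraries. Hif1a-202 (ENSMUST00000110461) was estimated at 2.10, 1.79 and 1.96 TPM in the control, 3.88, 3.55 and 3.54 TPM in the overexpressing and 4.29, 2.47 and 2.24 TPM in the EGCG libraries. In the overexpressing libraries Hif1a-201 was lower than in the control ones and Hif1a-202 was higher. Of 10 tested transcripts of these genes 6 were called in this comparison, 3 in each direction, beside 46.2% of 23656 tested transcripts. Among the lower ones, a Hif1an transcript met the minimum for testing only through the control libraries, where it was higher.

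The log2 difference of overexpressing minus control was -0.34 for Hif1a-201 (SE 0.0930, limma adjusted p = 0.0182) and 0.66 for Hif1a-202 (SE 0.169, limma adjusted p = 0.0136). Hif1a-202 held 11.8% ± 1.57 of the gene's TPM in the control, 22.7% ± 0.894 in the overexpressing and 19.4% ± 7.44 in the EGCG libraries (SD, n = 3 each). EGCG replicate 1 stood apart at 28.0%, against 15.9% and 14.4% in the other two. Between the EGCG and the overexpressing libraries neither transcript was called, with 0.03 for Hif1a-201 (limma adjusted p = 0.832) and -0.25 for Hif1a-202 (limma adjusted p = 0.293), and without EGCG replicate 1 Hif1a-202 was called at -0.47 (limma adjusted p = 0.00793).

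The 2 transcripts have 15 exons each, of which 13 are identical in the annotation, and Hif1a-202 starts 6529 bases upstream at another first exon and has 1 exon shorter by 42 bases. With so much shared sequence, the division of reads between them is the authors' estimate. The Hif1a-201 call ended without control replicate 2 (limma adjusted p = 0.0612) or overexpressing replicate 1 (limma adjusted p = 0.0547), and the Hif1a-202 call held in all 11 alternatives run for transcripts. Transcripts of Hif1a without a protein-coding label held 3.38% of its TPM in the control, 9.91% in the overexpressing and 7.48% in the EGCG libraries. An antisense gene over Hif1a, Gm15283, was at 0.11 to 0.34 TPM, and Gm49321, a same-strand gene that overlaps Hif1a, at 0 to 0.2 TPM.

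**Figure D2:**
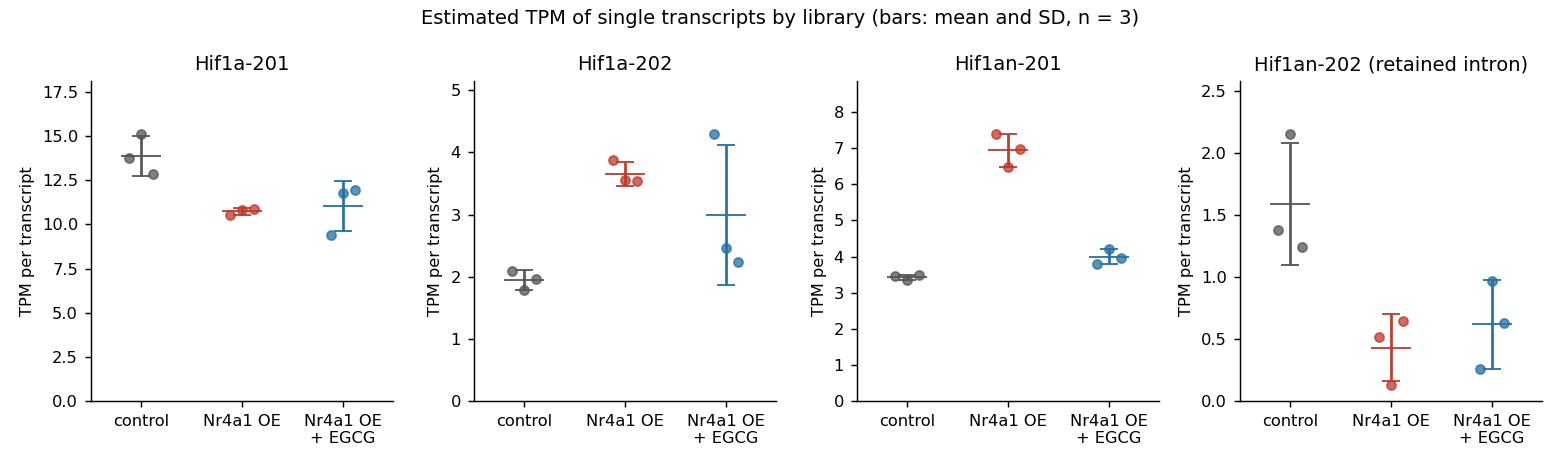
Estimated TPM (linear axes from 0, a separate scale per panel) of 2 Hif1a and 2 Hif1an transcripts in each library, with bars for mean and SD of 3 libraries. Hif1a-201 and the retained-intron transcript Hif1an-202 are lower in the overexpressing than in the control libraries, and Hif1a-202 and Hif1an-201 are higher.

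Epas1 (HIF-2 alpha), the subunit known from endothelium and kidney interstitial cells, was listed at 0.03, 0.01 and 0.02 TPM in the control libraries and at 0 in the 6 others. Hif3a, whose shorter forms can act as inhibitors of the other subunits, was listed at 0.10, 0.08 and 0.05 TPM in the control, 0, 0.01 and 0.01 TPM in the overexpressing and 0.03, 0.12 and 0.02 TPM in the EGCG libraries. Both were under the minimum for testing, and Hif1a made up 99.4%, 99.96% and 99.6% of the alpha subunit TPM in the control, overexpressing and EGCG groups. The exact two-sided permutation p of this share was 0.1 between overexpressing and control, which is the smallest that 3 libraries against 3 allow.

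The higher trace in the control libraries was seen for genes with no known role in these cells as well. The mean level of 1478 odorant, vomeronasal and trace amine receptor genes, expressed in sensory neurons, was 0.0728, 0.0620 and 0.0338 TPM in the control libraries, 0.00286 to 0.00319 TPM in the overexpressing and 0.00531 to 0.00798 TPM in the EGCG libraries. Epas1 was below this mean in every library. Egln3 was below it in the control and overexpressing libraries and above it in EGCG replicates 1 and 3. Hif3a was above it in all control and all EGCG libraries and in overexpressing replicates 2 and 3. Subtracting it from every gene left a difference of 0.0943 percentage points in the Hif1a share between overexpressing and control, where it was 0.536 before. The part of this background in the trace values was not tested further. The endothelial marker list was likewise at trace level, with a summed level of 0.24 to 0.59 TPM in the control, 0.04 to 0.09 TPM in the overexpressing and 0.06 to 0.12 TPM in the EGCG libraries, and 5 of 5 markers were under 1 TPM in every library.

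**Figure D3:**
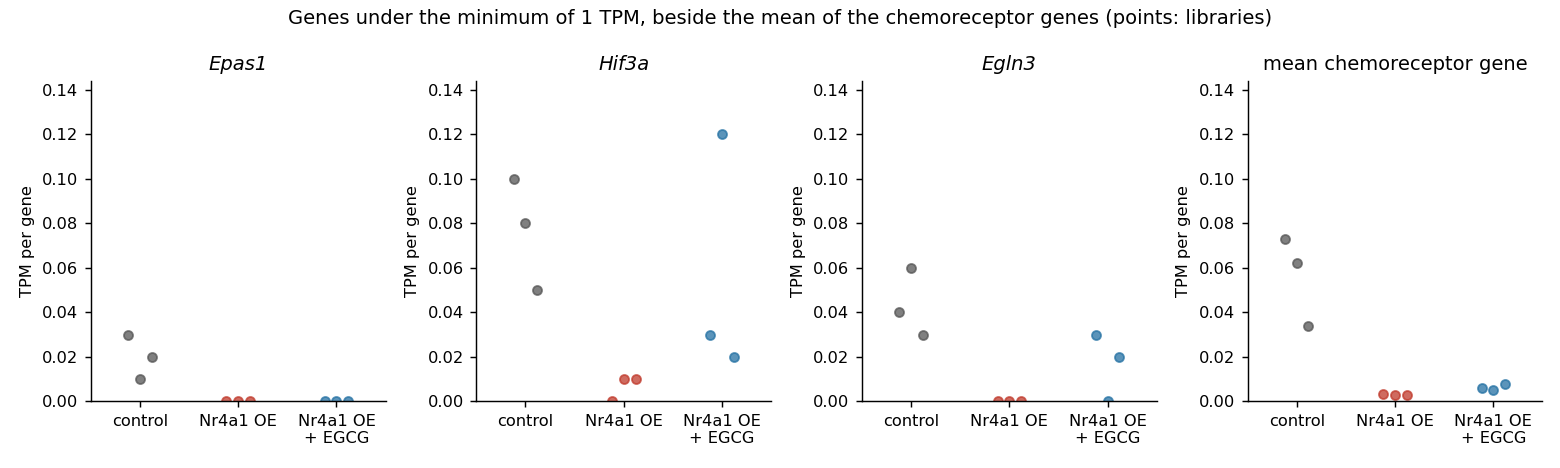
TPM per gene of Epas1, Hif3a and Egln3, and the mean TPM of the 1478 chemoreceptor genes, with a point per library and a shared linear axis. All 4 are higher in the control than in the overexpressing libraries, and the single point at 0.12 TPM is Hif3a in EGCG replicate 2.

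Arnt, the constitutive partner of all alpha subunits, was the least abundant of the 6 tested genes in the overexpressing libraries. Its level was 4.91, 4.95 and 4.46 TPM in the control, 4.35, 3.98 and 3.90 TPM in the overexpressing and 5.57, 5.62 and 5.73 TPM in the EGCG libraries. No 2 groups overlapped, and the EGCG group was the highest of the 3. Of all tested genes 65% did not overlap between overexpressing and control, 64.7% between EGCG and overexpressing and 34.9% between EGCG and control. The log2 difference was -0.19 for overexpressing minus control (SE 0.0585, limma adjusted p = 0.0216), 0.39 for EGCG minus overexpressing (limma adjusted p = 0.000561) and 0.20 for EGCG minus control (limma adjusted p = 0.0430). The first call ended on protein-coding transcripts alone (-0.13, limma adjusted p = 0.145) and when control replicate 1 or 2 or overexpressing replicate 2 or 3 was left out, with adjusted p from 0.0633 to 0.0787. The third call ended in 13 of 20 alternatives, and the second held in all 20 in which Arnt was tested.

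The level of Arnt relative to the alpha subunits was 28.7% ± 0.940 of their summed TPM in the control, 25.3% ± 1.08 in the overexpressing and 36.3% ± 0.359 in the EGCG libraries (SD, n = 3 each). Its 11 annotated transcripts, of which 9 were above 0 somewhere, were led by Arnt-202 with 41.9%, 43.2% and 40.1% of the gene's TPM in the 3 groups. Neither tested Arnt transcript, Arnt-202 or Arnt-203, was called in any comparison. A processed pseudogene inside Arnt, Gm42672, was at 0.35 to 1.2 TPM in the control, 0.61 to 0.74 TPM in the overexpressing and 1.28 to 1.55 TPM in the EGCG libraries, highest where Arnt was highest, and whether reads were shared between them was not tested.

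Egln1 (PHD2) was at 30.33, 30.08 and 27.74 TPM in the control libraries, at 9.29, 9.03 and 8.58 TPM in the overexpressing libraries, and at 20.01, 21.23 and 22.31 TPM in the EGCG libraries. The 3 groups stood apart, with the EGCG libraries between the others. Groups did not overlap for 65%, 64.7% and 34.9% of all tested genes in overexpressing against control, EGCG against overexpressing and EGCG against control. The group means were 29.4 ± 1.43, 8.97 ± 0.359 and 21.2 ± 1.15 TPM (SD, n = 3 each). The log2 difference was -1.61 for overexpressing minus control (SE 0.0592, 95% interval -1.74 to -1.47, limma adjusted p = 2.377e-07), 1.15 for EGCG minus overexpressing (limma adjusted p = 1.411e-06) and -0.45 for EGCG minus control (limma adjusted p = 0.00392). All 3 calls held in each of 21 alternatives. The annotation used here has 1 transcript of Egln1 and no other gene that overlaps it.

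In bulk RNA, fewer cells with a transcript and less of it per cell cannot be told apart, here and for every gene that follows. Over the 9 libraries the genes whose log2(TPM + 1) followed that of Egln1 most closely, among 6768 tested genes of at least 5 TPM, were Pla2g12a (Pearson r = 0.998), 1190002N15Rik (0.997) and Plekha3 (0.996). Pla2g12a encodes a secreted phospholipase and Plekha3 a lipid-binding protein of the Golgi. Plekha3 moved less: its mean was 25.1 TPM in the control, 15.8 TPM in the overexpressing and 22.4 TPM in the EGCG libraries. These correlations describe 3 group levels more than 9 independent points, and the values of a library share its scaling.

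Egln2 (PHD1) was at 8.51, 8.33 and 8.75 TPM in the control libraries, 10.95, 10.55 and 11.42 TPM in the overexpressing libraries and 8.27, 9.35 and 8.66 TPM in the EGCG libraries. The overexpressing libraries were above all others, and the control and EGCG libraries overlapped. Overexpressing libraries did not overlap the control for 65% and the EGCG libraries for 64.7% of all tested genes. The log2 difference was 0.33 for overexpressing minus control (SE 0.0568, limma adjusted p = 0.000949), -0.30 for EGCG minus overexpressing (limma adjusted p = 0.00217) and 0.03 for EGCG minus control (95% interval -0.0951 to 0.161, limma adjusted p = 0.712). The first and second calls held in each of 21 alternatives. Egln2-201 carried 92.4% to 93.6% of the gene's TPM in the 3 groups and moved like the gene, by 0.32 (limma adjusted p = 0.00341) and -0.30 (limma adjusted p = 0.00621).

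Egln3 (PHD3), a strongly hypoxia-inducible member of the family, was listed at 0.04, 0.06 and 0.03 TPM in the control libraries, at 0 in all 3 overexpressing libraries, and at 0.03, 0 and 0.02 TPM in the EGCG libraries. It was under the mean of the receptor genes in the control and overexpressing libraries and in EGCG replicate 2, above it in EGCG replicates 1 and 3, and was not tested as a gene. Its share of the summed prolyl hydroxylase TPM was 0.114%, 0% and 0.0568% in the 3 groups, with an exact two-sided permutation p of 0.1 between overexpressing and control, the smallest possible. With the receptor mean subtracted, that difference was 0.

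The changes of Egln1 and Egln2 altered the composition of the family. Egln1 made up 78.0%, 78.2% and 76.0% of the summed Egln1, Egln2 and Egln3 TPM in the control libraries, 45.9%, 46.1% and 42.9% in the overexpressing libraries and 70.7%, 69.4% and 72.0% in the EGCG libraries. Egln2 thus made up more than Egln1 in the overexpressing libraries only, in 3 of 3, and less in the 6 others. The summed level was 38.0 ± 1.26 TPM in the control, 19.9 ± 0.334 TPM in the overexpressing and 29.96 ± 1.44 TPM in the EGCG libraries (SD, n = 3 each). The share was chosen after the levels of both genes had been seen and is given without a test.

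**Figure D4:**
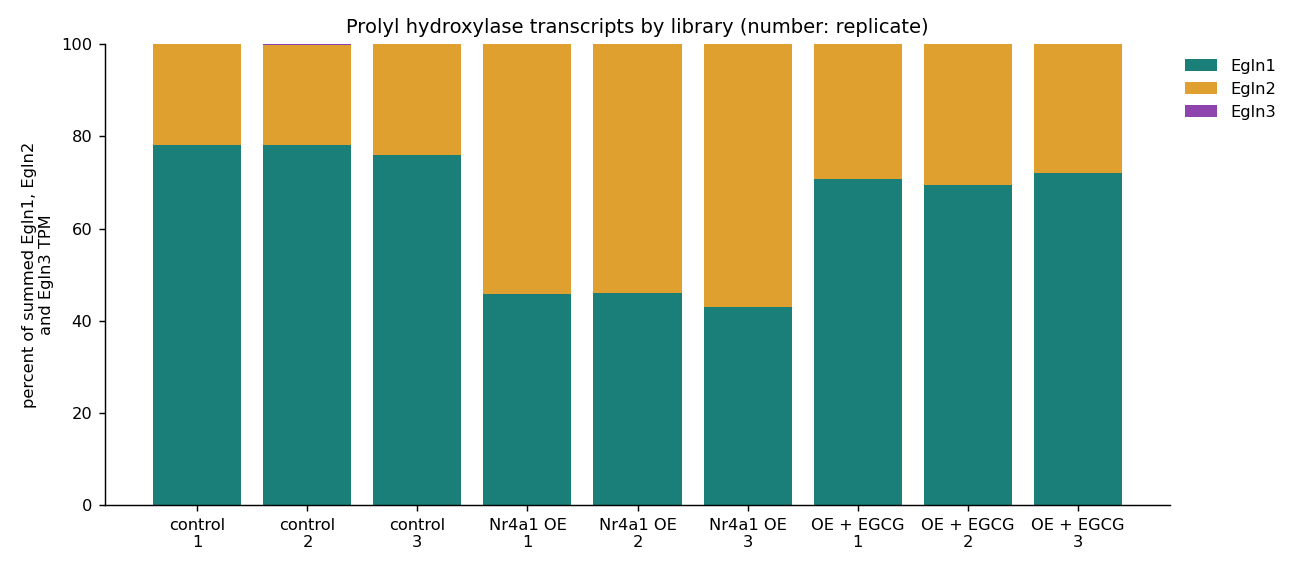
Share of Egln1, Egln2 and Egln3 in their summed TPM, in percent, as a stacked bar for each library. Egln1 holds 42.9% to 46.1% in the overexpressing libraries and 69.4% to 78.2% in the others, and Egln3 is too small to see in most bars.

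Hif1an was at 4.83, 5.50 and 4.72 TPM in the control, 7.89, 6.60 and 7.61 TPM in the overexpressing and 4.06, 5.19 and 4.59 TPM in the EGCG libraries. As for Egln2, the overexpressing libraries were above all others and the other groups overlapped. The shares of all tested genes without overlap were 65% and 64.7%, as given for Egln2. The log2 difference was 0.47 for overexpressing minus control (SE 0.0927, limma adjusted p = 0.00193), -0.58 for EGCG minus overexpressing (limma adjusted p = 0.000807) and -0.10 for EGCG minus control (95% interval -0.312 to 0.107, limma adjusted p = 0.463). The first and second calls held in each of 21 alternatives. Relative to the summed prolyl hydroxylases, Hif1an was 13.2%, 36.9% and 15.4% in the control, overexpressing and EGCG groups.

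The estimated levels of the 2 Hif1an transcripts differed in opposite directions between the overexpressing and the control libraries. Hif1an-201 (ENSMUST00000040455), the protein-coding transcript of 8 exons, was estimated at 3.45, 3.35 and 3.48 TPM in the control, 7.37, 6.47 and 6.96 TPM in the overexpressing and 3.80, 4.22 and 3.96 TPM in the EGCG libraries. Hif1an-202 (ENSMUST00000131032), annotated as a retained intron, was estimated at 1.38, 2.15 and 1.24 TPM in the control, 0.52, 0.13 and 0.65 TPM in the overexpressing and 0.26, 0.97 and 0.63 TPM in the EGCG libraries. The retained-intron transcript was highest in the control libraries, while the coding transcript was highest in the overexpressing libraries.

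For Hif1an-201 the log2 difference was 0.84 for overexpressing minus control (SE 0.0629, limma adjusted p = 4.341e-05), -0.67 for EGCG minus overexpressing (limma adjusted p = 0.000185) and 0.17 for EGCG minus control (limma adjusted p = 0.11). For Hif1an-202 it was -0.86 (SE 0.223, limma adjusted p = 0.0148), 0.17 (limma adjusted p = 0.603) and -0.68 (limma adjusted p = 0.0838). Its first call ended without control replicate 2 (limma adjusted p = 0.0524). Hif1an-202 reached 1 TPM in the 3 control libraries alone, so it met the minimum for testing only through the group where it was higher. Its call is therefore no independent support for a fall, and its levels are given as a description. Hif1an-202 held 31.3% ± 6.83 of the gene's TPM in the control, 5.70% ± 3.38 in the overexpressing and 12.9% ± 6.18 in the EGCG libraries (SD, n = 3 each). It has 2 exons, shares 1 with Hif1an-201 and is annotated 412 bases into the intron after the second. On coding transcripts alone the gene's difference of EGCG minus control was thus 0.17, against -0.10 for the sum.

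Between the EGCG and the overexpressing libraries 3 of the 10 tested transcripts were called, beside 32.9% of all tested transcripts, and between EGCG and control 1 of 10, Egln1-201, beside 11.1%. The genes most like Hif1an over the 9 libraries were Med4 (Pearson r = 0.993), a Mediator subunit, Cnep1r1 (0.985), a regulatory subunit of a nuclear envelope phosphatase, and Tardbp (0.983), which encodes the RNA-binding protein TDP-43. For Hif1a, whose levels differed little, they were Tbk1 (0.952), Thap12 (0.938) and Dbf4 (0.931), each highest in control replicate 2 as Hif1a was. These likewise rest on 9 libraries in 3 groups.

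Vhl, the substrate-binding subunit of the ligase, was at 6.86, 6.76 and 6.90 TPM in the control, 7.79, 7.51 and 6.81 TPM in the overexpressing and 8.12, 7.52 and 7.79 TPM in the EGCG libraries. Every EGCG library was above every control library, as groups did not overlap for 34.9% of all tested genes, and the overexpressing libraries overlapped both. The log2 difference was 0.09 for overexpressing minus control (95% interval -0.0376 to 0.223, limma adjusted p = 0.193), 0.08 for EGCG minus overexpressing (95% interval -0.0551 to 0.205, limma adjusted p = 0.297) and 0.17 for EGCG minus control (95% interval 0.0375 to 0.298, limma adjusted p = 0.0730). The sign of the first depended on scaling, with -0.01 after median-ratio or quantile scaling. The second was called with median-ratio scaling (0.17, limma adjusted p = 0.0399) and when only nuclear protein-coding genes were kept (0.21, limma adjusted p = 0.0159), where the third was called as well (0.23, limma adjusted p = 0.0225).

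**Figure D5:**
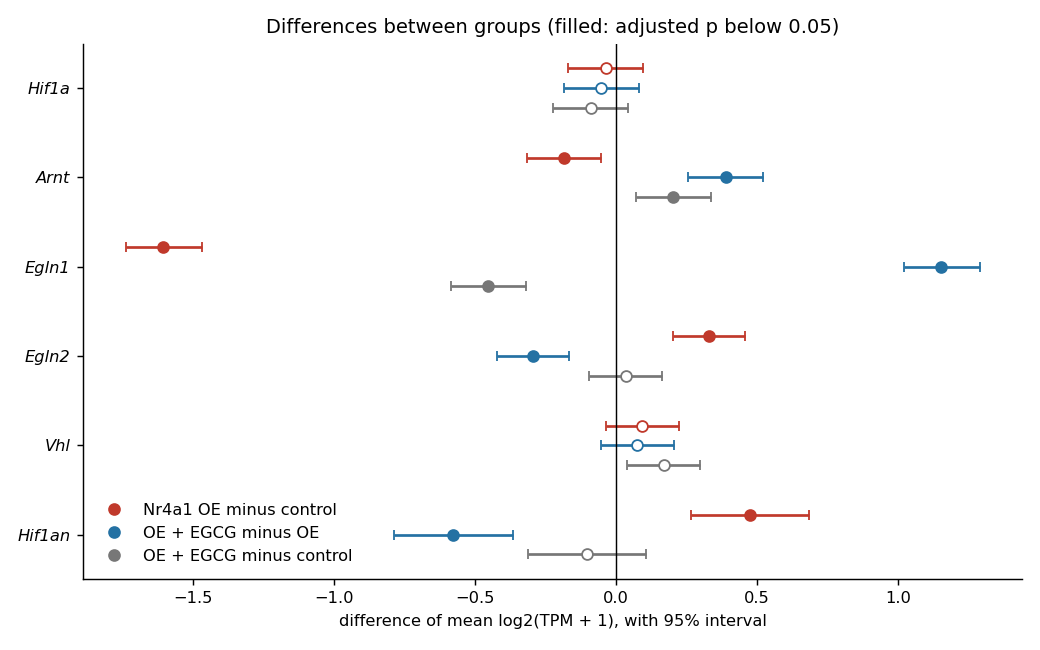
Differences of mean log2(TPM + 1) between groups for the 6 tested genes, as points with 95% intervals, filled where the limma adjusted p was below 0.05. Egln1 lies farthest from 0 in each comparison, at -1.61, 1.15 and -0.45, and the intervals of Hif1a include 0 in all 3.

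Ordered by level per length, the control libraries had Egln1 highest, then Hif1a, Egln2 and Vhl, with Hif1an and Arnt last and overlapping. In the overexpressing libraries Hif1a was highest, followed by Egln2, Egln1, then Vhl and Hif1an, which overlapped, and Arnt. In the EGCG libraries the order was Egln1, Hif1a, Egln2, Vhl, Arnt and Hif1an, with no overlap between neighbours. Egln1 thus passed from the first place to the third in the overexpressing libraries and back.

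The other genes of the pathway are given from lists by role. These lists were chosen with earlier results of these data known, so their counts are a description and not independent support. Of 21 hypoxia-inducible genes, many of them known HIF-1 targets, 18 were tested, and 17 fell and 1 rose in the overexpressing libraries, with a median log2 difference of -2.39 beside 0.10 for all tested genes, of which 21.3% were called lower and 38.2% higher. In the EGCG libraries 17 of 18 rose against the overexpressing ones and none fell, with a median of 2.51 beside -0.09 for all tested genes, of which 18.8% were called higher and 34.1% lower, and none fell at an unadjusted p below 0.05 in limma either. Ankrd37 fell from 24.48, 24.70 and 25.64 TPM to 2.19, 1.70 and 1.47 TPM and stood at 25.49, 22.87 and 26.76 TPM with EGCG. The mitochondrial protein gene Fam162a went from 202.51, 205.77 and 227.31 TPM to 26.43, 23.65 and 19.79 TPM, and the glycolytic enzyme gene Aldoc from 14.26, 15.09 and 16.16 TPM to 1.17, 1.29 and 1.55 TPM. All 3 were within the called genes of both comparisons, with limma adjusted p from 6.88e-08 to 1.12e-07. Adm and Ak4, named here after their values were seen, were at 0.17 to 0.33 and 0.11 to 0.67 TPM in the overexpressing libraries. They met the minimum for testing only through the other groups, where they were higher. Their calls are therefore no independent support for these counts.

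Pfkfb4, a phosphofructokinase-2 isozyme, was the 1 member of this list that rose, from 1.27 to 1.31 TPM in the control to 1.74 to 2.19 TPM in the overexpressing libraries (log2 difference 0.36, limma adjusted p = 0.00251), and was the 1 not called between EGCG and overexpressing. It is named after its values were seen. Against control the EGCG libraries had 4 of the 18 higher and 1 lower, with a median of 0.05, and 2 were called without control replicate 1, control replicate 2 or EGCG replicate 1, and 3 without control replicate 3, overexpressing replicate 2 or EGCG replicate 2. The change of Egln1, at -1.61 and 1.15, had the direction of these genes with a smaller size than the list's medians. Between EGCG and control Egln1 differed by -0.45, Aldoc, the 1 member called lower, by -0.27 (limma adjusted p = 0.0426), and Ankrd37 and Fam162a by 0.00 and -0.07 (limma adjusted p = 0.987 and 0.611). The differences between these genes were not tested.

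Genes listed with other oxygen-using hydroxylases and dioxygenases moved with Egln1 in part. A list held collagen hydroxylases, which modify proline and lysine of procollagen, and members of their families. Of its 7 tested genes 5 fell and 1 rose in the overexpressing libraries (median -1.08), beside 38.2% higher and 21.3% lower of all tested genes. With EGCG 6 rose and 1 fell against the overexpressing libraries (median 1.35), beside 18.8% higher and 34.1% lower of all tested genes. P4ha2 went from 10.69, 9.91 and 8.58 TPM to 0.71, 0.55 and 0.38 TPM and to 7.58, 7.38 and 7.93 TPM with EGCG, and P4ha1 from a mean of 27.7 to 8.46 and to 28.6 TPM. P4ha2 met the minimum for testing only through the control and EGCG libraries, where it was higher, so its calls are no independent support. Plod2, a lysyl hydroxylase, had means of 16.2, 4.20 and 15.2 TPM. The member that rose was P3h1, from 1.4 to 1.68 TPM in the control to 2.8 to 3.46 TPM (limma adjusted p = 0.000342), named here after its values were seen.

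Among 17 other oxygen-dependent dioxygenases, mainly histone and DNA demethylases, 10 fell and 4 rose in the overexpressing libraries (median -0.31), beside 38.2% higher and 21.3% lower of all tested genes. With EGCG 7 rose and 2 fell against the overexpressing libraries (median 0.19), beside 18.8% higher and 34.1% lower of all tested genes. The smallest adjusted p in the overexpressing libraries were those of Jmjd6, which hydroxylates lysines of splicing factors, with means of 34.0, 11.2 and 34.9 TPM, and of the histone lysine demethylases Kdm3a, with 21.9, 7.92 and 30.3 TPM, and Kdm4b, with 8.81, 4.18 and 9.87 TPM. Kdm3a was above control in the EGCG libraries (0.44, limma adjusted p = 0.00928), on the other side of it from Egln1. The 4 that rose, named here after their values were seen, were P4htm, Ado, Ogfod1 and Kdm4a (log2 difference 0.60, 0.47, 0.34 and 0.27). Thus Jmjd6, Kdm3a and Kdm4b were lower in the overexpressing libraries, as Egln1 was, and these 4 were higher, as Egln2 and Hif1an were.

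Cofactors that act on the alpha subunits were mixed. Of 7 tested genes in the coactivator list, which also holds the competitor Cited2, 2 rose and 3 fell in the overexpressing libraries (median -0.11). Thus 5 of 7 were called, beside 59.5% of all tested genes. Pkm, pyruvate kinase, whose M2 form is known to bind HIF-1 alpha, was at 625.44, 648.50 and 646.83 TPM in the control and 313.60, 298.33 and 266.35 TPM in the overexpressing libraries. Cited2, which competes for the same coactivators, fell from a mean of 19.5 to 8.75 TPM and was at 12.9 TPM with EGCG. Cdk8, a Mediator kinase, rose from 16.4 to 23.5 TPM and was at 16.2 TPM with EGCG. Of the bHLH-PAS relatives of the HIF subunits 3 of 12 were tested. None was called in the overexpressing libraries by limma (1, Npas3, at an unadjusted p below 0.05), beside 59.5% of all tested genes. So few genes cannot be set against that share. Clock was at 16.02 to 18.99 TPM in the control and 18.49 to 19.70 TPM in the overexpressing libraries, and Npas3 at 2.78 to 3.43 and 3.65 to 6.01 TPM. The count of called relatives varied from 0 to 4 over the alternatives. The 4 were of 12 tested without the low-value filter, and median-ratio scaling called 1 of 3, which was lower.

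A list of 9 genes covered partners of Vhl in its ligase and the conjugation of NEDD8, which activates cullins. In the overexpressing libraries 3 rose and 2 fell (median 0.085), beside 38.2% higher and 21.3% lower of all tested genes. Against the overexpressing libraries 1 fell with EGCG (median -0.04), beside 34.1% lower and 18.8% higher of all tested genes. Cand1, an exchange factor of cullin ligases, was at 19.92, 19.21 and 14.81 TPM in the control and 29.34, 26.06 and 27.79 TPM in the overexpressing libraries (limma adjusted p = 0.000668). Nedd8 and its conjugating enzyme Ube2m had means of 90.9 and 76.9 TPM, and of 42.6 and 35.8 TPM (limma adjusted p = 0.0240 and 0.0232). The calls of this list between overexpressing and control were unstable. Between 1 and 3 were called when control replicate 1 or 2 or any overexpressing library was left out, and with median-ratio scaling 1 was higher and 3 were lower. Between EGCG and overexpressing, median-ratio scaling gave 1 higher and 0 lower.

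Of 17 tested genes for proteins known to change the stability of HIF alpha or of the prolyl hydroxylases, 12 rose and none fell in the overexpressing libraries by limma, nor at an unadjusted p below 0.05, with a median of 0.23 beside 0.10 for all tested genes, of which 38.2% were called higher and 21.3% lower. Scaling by median ratio left 7 higher and 1 lower. With EGCG against the overexpressing libraries 11 fell and 1 rose (median -0.22), beside 34.1% lower and 18.8% higher of all tested genes, and 6 fell and 1 rose with median-ratio scaling. Siah2, a ubiquitin ligase of the prolyl hydroxylases, was at 4.76, 4.73 and 4.49 TPM in the control, 7.50, 6.90 and 7.99 TPM in the overexpressing and 5.55, 5.31 and 5.60 TPM in the EGCG libraries. Its relative Siah1b had means of 3.06, 4.79 and 2.86 TPM. Usp33, a deubiquitinase, had means of 9.88, 19.2 and 11.5 TPM.

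Of 13 regulators of Hif1a transcription or translation 7 rose and 2 fell in the overexpressing libraries (median 0.23), beside 38.2% higher and 21.3% lower of all tested genes, or 5 and 5 with median-ratio scaling. Eif4e, the cap-binding translation factor, went from a mean of 43.8 to 71.4 TPM and was at 49.2 TPM with EGCG. Nfkb1, an NF-kappa B subunit, went from 6.01 to 8.94 and to 5.99 TPM. Mtor, the kinase of the growth pathway, was at 7.28 TPM in the control, 9.95 TPM in the overexpressing and 10.5 TPM in the EGCG libraries, so that its level with EGCG was above control as well (limma adjusted p = 0.00396). Hif1a itself was not called beside these.

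Of 11 enzymes that make or remove the metabolites acting on the hydroxylases (2-oxoglutarate, succinate, fumarate, 2-hydroxyglutarate), 6 rose and 2 fell in the overexpressing libraries (median 0.42), beside 38.2% higher and 21.3% lower of all tested genes. Idh3a, a subunit of the mitochondrial isocitrate dehydrogenase that makes 2-oxoglutarate, went from 24.53, 26.17 and 26.38 TPM to 46.29, 43.35 and 45.95 TPM and to 26.06, 29.82 and 26.67 TPM with EGCG. Fh1, which removes fumarate, had means of 48.7, 76.7 and 60.5 TPM, and Sdhb, a subunit of succinate dehydrogenase, of 32.5, 47.1 and 34.5 TPM. The 2 that fell were Sdha, another subunit of succinate dehydrogenase, and Idh2, named here after their values were seen. Their means were 60.9, 41.8 and 48.6 TPM, and 74.6, 61.9 and 71.1 TPM. Against the overexpressing libraries 5 fell and 2 rose with EGCG (median -0.21), beside 34.1% lower and 18.8% higher of all tested genes, or 4 and 4 with median-ratio scaling.

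The cells carried most of the markers of their label. All 8 beta cell markers were tested, and their summed level was 4828 to 4915 TPM in the control, 6568 to 6870 TPM in the overexpressing and 4767 to 5107 TPM in the EGCG libraries. Slc2a2 was near the minimum for testing, at 0.82 to 1.42 TPM in the control and 0.49 to 0.81 TPM in the overexpressing libraries. It was at 2.69 to 3.73 TPM in the EGCG libraries and met the minimum through them. The markers did not move together. Between overexpressing and control 5 were called higher and 2 lower, beside 38.2% higher and 21.3% lower of all tested genes. Ins1, an insulin gene, rose from a mean of 785 to 2030 TPM. The 2 lower were Mafa, a beta cell transcription factor (log2 difference -0.68, limma adjusted p = 0.000217), and Chga, a granule protein gene (-0.37, limma adjusted p = 0.00112). Of 5 alpha and delta cell markers 2 were tested. Between overexpressing and control 1 was called higher and 1 lower, beside the same shares of all tested genes. Gcg, the glucagon gene, was called higher, with a mean of 323 TPM in the control, 759 TPM in the overexpressing and 304 TPM in the EGCG libraries, and Irx2, a transcription factor of alpha cells, was called lower, with 3.50, 2.44 and 2.76 TPM (limma adjusted p = 0.0455 between overexpressing and control). The summed levels of both lists were highest in the libraries in which Egln2 and Hif1an were highest, and their part in those results was not tested. Summed levels of the fibroblast (0.12 to 0.82 TPM), macrophage (0.29 to 1.06 TPM) and acinar and ductal lists (3.77 to 5.49 TPM) were low in all libraries, and no marker was at 0 in all of them.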

How the data were processed

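Total RNA of 9 MIN6 libraries was extracted with an RNeasy kit and prepared with a stranded total RNA kit, per the labels' protocols. The deposited values are TPM per transcript, which the authors made on the GRCm39 build with RSEM 1.2.31 and STAR 2.7.1a, after cutadapt 2.8 and bcl2fastq 2.20 with FastQC 0.11.9, per the submitters' processing notes. The sources used here do not give the annotation release or the strand setting. TPM is relative to each library's total, so a rise of abundant RNAs lowers all others, and depth is unknown.

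Identifiers were joined to GENCODE M21, an annotation of an older build used for names, biotypes and exon structure. Of 142435 identifiers 138346 (97.1%) matched, and the 4089 others held 18.0% to 20.6% of a library's TPM. These others were left out of the gene sums, so a gene may lack transcripts of a later annotation (Higd1a, of the hypoxia-inducible list, is listed at 0 to 0.1 TPM). TPM was summed per gene, and genes reaching 1 TPM in 3 or more libraries were tested on log2(TPM + 1) with limma 3.58.1 in R 4.3.3 (eBayes with a mean-variance trend, a fit over all 9 libraries, two-sided tests, Benjamini-Hochberg at 0.05 within each comparison). The fit was tested on simulated data. Transcripts were tested likewise. Shares were compared with exact permutation tests. Promoter windows were searched on both strands.

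Groups come from the sample titles. Besides the 9 HIF pathway genes and Nr4a1, the named genes are up to 3 called genes of smallest adjusted p between overexpressing and control in each list (the 2 most abundant where none was called), the 3 genes most correlated with Hif1a, Egln1 and Hif1an (Egln3, at trace level, was left out), overlapping genes and cell type markers. Genes named outside this rule are marked as such. The genes, lists and rules were chosen with earlier results of these data known. The alternatives were another pseudocount, other filters and scalings, coding transcripts alone, subtraction of the receptor mean, other fits, a replicate block and leaving out each library. Those for transcripts and lists were chosen after seeing the data.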

Additional observations from a re-analysis of the deposited data

How the results depend on the processing

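The calls of Egln1, Egln2 and Hif1an in both comparisons with the overexpressing libraries, and of Egln1 between EGCG and control, held in all 21 alternatives. Without the low-value filter 12395 genes were called between overexpressing and control and 4775 between EGCG and control, and with a mean of at least 5 TPM 4578 in the first comparison and 4112 between EGCG and overexpressing. Between EGCG and control 895 genes were called in a fit of these 2 groups alone, and 735 to 3239 when a library was left out. In that comparison 1 HIF pathway gene was called, Egln1, in place of 2, without the filter, with a mean of at least 5 TPM, on coding transcripts alone, with the 2 groups alone and with library weights, and 1 to 2 when a library was left out, where 1 to 2 of their transcripts were called.

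Same-numbered libraries had correlations of their deviations from -0.021 to 0.214, and differently numbered ones from -0.238 to 0.121. These values do not settle if libraries of a number belong together, and the sample titles do not state it. The main fit used no pairing. With a replicate block 4, 4 and 1 HIF pathway genes and, between EGCG and control, 1221 genes were called.

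Differences that turned sign were small. Vhl between overexpressing and control was -0.0117 with median-ratio scaling and -0.00607 after quantile normalization. Hif1a between EGCG and overexpressing was 0.0439, 0.0882 and, on nuclear coding genes alone, 0.0891, and between overexpressing and control -0.0922 to 0.0153 when a library was left out (0.0153 without control replicate 2). Between EGCG and control, Egln2 was -0.0129 and Hif1an 0.173 on coding transcripts, and when a library was left out Egln2 was -0.00995 to 0.0695 and Egln2-201 -0.0267 to 0.0481, lowest without EGCG replicate 2. Hif1a-201 between EGCG and overexpressing was -0.0231 to 0.133, below 0 without EGCG replicate 2 or 3. With the receptor mean subtracted, the Egln3 share differed by 0 percentage points between overexpressing and control and by 0.0412 between EGCG and control, and the Hif1a share by 0.0943 and -0.199. The cause of these shifts was not tested. TPM limits all values to shares of a library, and 3 libraries a group allow no permutation p below 0.1.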
